A study of Mus musculus with 4 samples.

Results

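The genes described here encode the subunits of the mitochondrial respiratory chain and of ATP synthase, read in the epididymal fat of *Mir342* (-/-) and *Mir342* (+/+) mice. Members were chosen by symbol, as genes named *Ndufa*, *Ndufb*, *Ndufc*, *Ndufs*, *Ndufv*, *Sdha* to *Sdhd*, *Uqcr*, *Cox4* to *Cox8* or *Atp5* followed by their subunit codes, without assembly factors. The rule took 81 of 22180 genes on the array, with 32 of complex I, 4 of complex II, 8 of complex III, 19 of complex IV and 18 of complex V. A total of 73 members had a mean above the floor of 5.06 on the log2 scale, which is the 95th percentile of 1443 probes for olfactory, vomeronasal and taste receptors, and 12963 of all genes passed the same floor. The 8 members under it were *Atp5c1-ps*, *Atp5g1*, *Atp5j2*, *Cox7b2*, *Cox8c*, *Ndufb11*, *Ndufs5* and *Uqcrh-ps1*, of which *Atp5c1-ps* and *Uqcrh-ps1* are pseudogenes.

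The respiratory chain passes electrons from NADH and succinate to oxygen and pumps protons across the inner mitochondrial membrane, and ATP synthase lets the protons return to make ATP. Complex I oxidizes NADH, complex II oxidizes succinate, complex III passes electrons from ubiquinol to cytochrome c, and complex IV reduces oxygen. Most subunits are encoded in the nucleus, a few in mitochondrial DNA. White fat stores lipid and holds few mitochondria compared with brown fat, in which the chain burns fuel to make heat.

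The study profiled epididymal fat of male mice, labelled C57BL/6J, at 16 weeks of age with 4 GeneChip arrays, 1 for each of 4 groups. The paper names 3 individual animals per group without saying whether they were pooled. It describes chimeras prepared on C57BL/6N and mated with C57BL/6JJcl. The part of substrain differences in the genotype comparisons was not tested. The groups are *Mir342* (-/-) on high fat-high sucrose chow (HFHS), *Mir342* (+/+) on HFHS, *Mir342* (-/-) on standard chow (STD) and *Mir342* (+/+) on STD. In *Mir342* (-/-) mice a puromycin selection cassette replaces the hairpin in every cell, from 1 targeted embryonic stem cell line, and the hairpin lies in an intron of *Evl*. With 1 array per group each difference is between 2 arrays, has no replicate check and cannot tell animals from conditions. The *Mir342* probe read 4.46 and 4.62 in the *Mir342* (-/-) arrays on HFHS and STD, against 5.52 and 5.43 in the *Mir342* (+/+) arrays. The host gene *Evl* read 7.46 and 6.95 in *Mir342* (-/-), against 7.65 and 7.55 in *Mir342* (+/+). The tissue label was borne out by adipocyte markers, of which all 9 on the array were above the floor, with a mean of 11.0 on both HFHS arrays, 10.9 in STD *Mir342* (-/-) and 10.6 in STD *Mir342* (+/+).

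The mature microRNA is shown because its loss defines every genotype comparison of the subunit genes. It lies at chr12:108658680-108658702 on the plus strand of GRCm38.p6, and capitals mark the seed, bases 2 to 8, by which a microRNA pairs with its targets.
miR-342-3p: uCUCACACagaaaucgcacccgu

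Promoter stretches of 5 subunit genes are shown next, all from RefSeq on GRCm38.p6, upstream of the annotated start and in the direction of transcription. Capitals mark a match to the nuclear respiratory factor 1 (NRF1) motif CGCANGCGC on either strand. NRF1 is a transcription factor known for driving nuclear genes of the respiratory chain. *Ndufa11* is at chr17:56717687-56717726 on the plus strand, *Sdhd* at chr9:50603904-50603942, *Atp5md* at chr19:47090821-47090859, *Sdha* at chr13:74350271-74350309 and *Atp5g2* at chr15:102671065-102671104, the last 4 on the minus strand.
Ndufa11: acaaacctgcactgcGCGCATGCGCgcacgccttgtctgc
Sdhd: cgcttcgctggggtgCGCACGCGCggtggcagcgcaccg
Atp5md: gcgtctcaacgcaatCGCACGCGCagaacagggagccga
Sdha: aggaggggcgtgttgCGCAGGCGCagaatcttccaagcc
Atp5g2: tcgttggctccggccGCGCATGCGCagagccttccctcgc
The first 3 genes read higher on HFHS by some amount in both genotypes, as did 46 members above the floor (63%) and 38.2% of all genes. Of the 3, only *Ndufa11* was at least 1.2-fold higher in both. *Sdha* and *Atp5g2* did not read higher in either genotype, although all 5 hold the motif. Promoters of isoform pairs are shown further on.

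Levels of the 73 members above the floor spanned means of 5.14 to 11.6, and their median was 7.56, where that of all genes above the floor was 6.56. The members also varied little, since the median range over the 4 arrays was 0.28 for members and 0.36 for all genes. In all 4 comparisons 37 members (50.7%) stayed within 1.2-fold, against 36.7% of all genes. *Cox8b*, *Cox7a1*, *Ndufs8* and *Ndufa11* differed by 1.5-fold or more in at least 1 of the 4 comparisons, for which the share of all genes was not counted. By comparison, 2 members were at least 1.5-fold higher on HFHS in *Mir342* (-/-), against 405 of 12963 genes. In *Mir342* (+/+) there were 3, against 846. In *Mir342* (-/-) against *Mir342* (+/+), 1 was higher on STD, against 232, and 0 on HFHS, against 58. Lower by 1.5-fold were 0 members in each comparison.

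**Figure D1:**
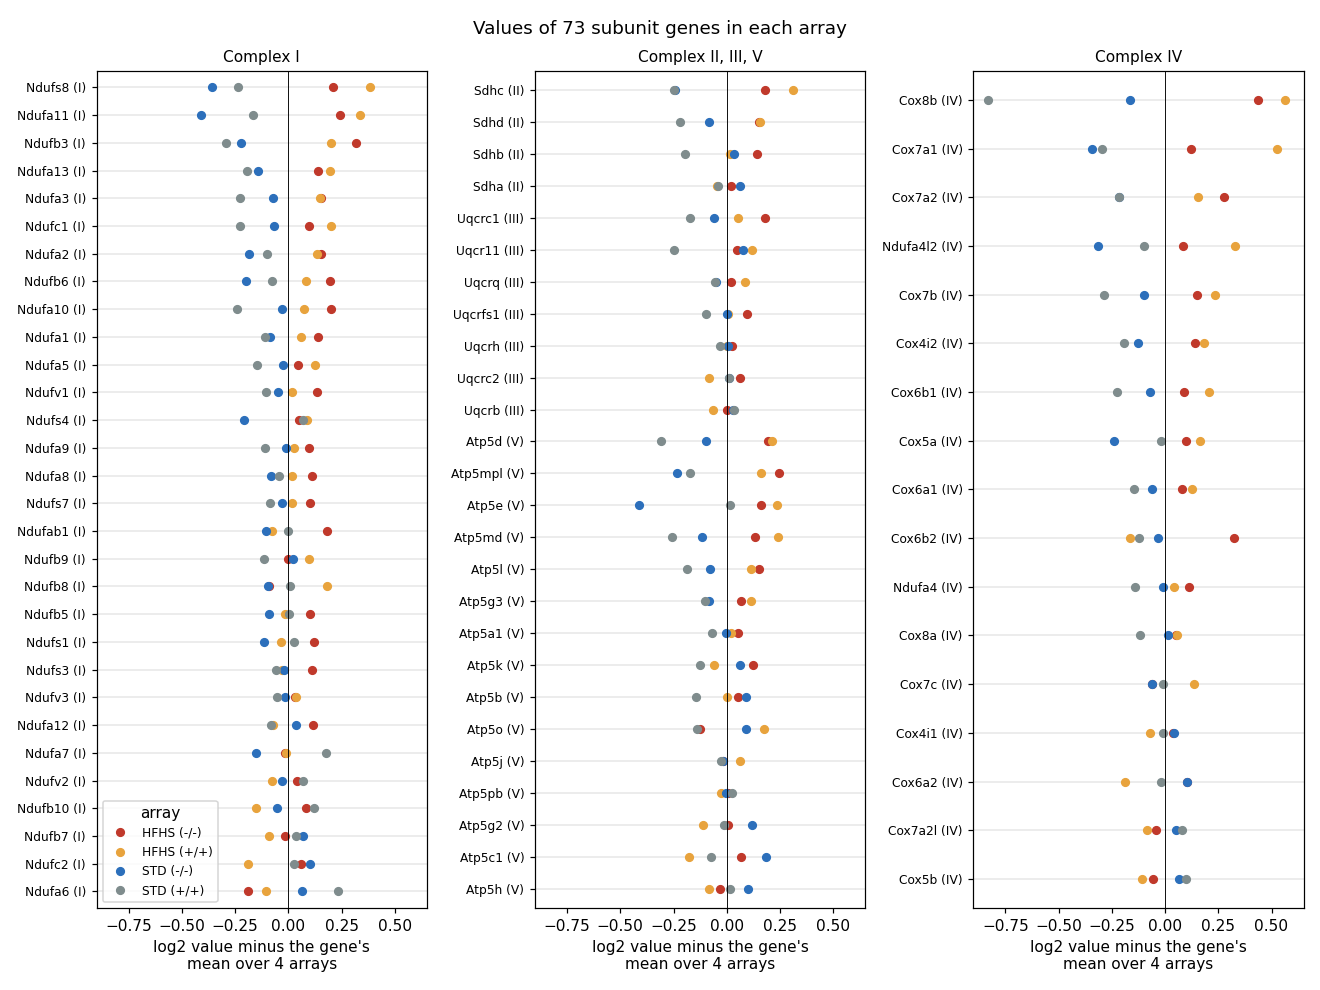
Each row is 1 of 73 subunit genes and each point 1 of the 4 arrays, as the log2 value minus that gene's mean over the 4 arrays (x axis), grouped by complex and ordered by the diet term of the fit. In the upper rows of each complex the HFHS arrays (red and orange) lie to the right of the STD arrays (blue and grey), and STD *Mir342* (+/+) is the lowest array for 39 of the 73 genes.

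HFHS chow was compared with STD chow in each genotype. Subunit genes were on balance higher on HFHS, with a median log2 difference of 0.14 in *Mir342* (-/-) and 0.14 in *Mir342* (+/+), against medians of 0.05 and 0.02 for all genes in the same order of genotypes. At least 1.2-fold higher were 18 members in *Mir342* (-/-), against 18.5% of all genes, and 24 in *Mir342* (+/+), against 21.6%. The shares of members were 24.7% in *Mir342* (-/-) and 32.9% in *Mir342* (+/+). At least 1.2-fold lower were 0 members in *Mir342* (-/-), against 9.25% of all genes, and 2 in *Mir342* (+/+), against 18%. Counting differences of any size, 55 members were higher on HFHS in *Mir342* (-/-), against 58% of all genes, and 52 in *Mir342* (+/+), against 52.6%. With each array centred on its median, 89% of members and 66.1% of all genes were higher in *Mir342* (-/-), in place of 75.3% and 58%.

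Both genotypes are separate pairs of arrays, so each diet difference has a second reading. A total of 12 members read at least 1.2-fold higher on HFHS in both (16.4%), against 10.3% of all genes, and 0 were lower in both, against 4.48%. With values under the floor set to it, 11 of them passed, against 10.1% of all genes, since both STD arrays of *Cox7a1* were under the floor. By any amount, 46 members were higher in both genotypes (63%), against 38.2% of all genes. In 39 members both HFHS arrays lay above both STD arrays, and in 6 they lay below, where all genes had 29.4% and 19.4%. The 12 were *Ndufs8*, *Ndufa11*, *Ndufb3* and *Ndufa13* of complex I, *Sdhc* of complex II, *Cox8b*, *Cox7a1*, *Cox7a2*, *Cox4i2* and *Ndufa4l2* of complex IV, and *Atp5d* and *Atp5mpl* of complex V. None was of complex III.

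The limma fit with genotype and diet as additive terms used all 4 arrays and called 0 members for diet after Benjamini-Hochberg adjustment over 12963 genes, where 1.29% of all genes were called higher and 0.54% lower. The smallest adjusted p of a member was 0.0657, for *Cox8b*, which had 1 array under the floor, and the next was 0.0684, for *Ndufs8*. At an unadjusted p under 0.05, 16 members were higher on HFHS (21.9%), against 13% of all genes, and 1 was lower, against 6.7%. With the floor raised by 1 on the log2 scale the same fit called 3 members higher, *Ndufs8*, *Ndufa11* and *Ndufb3*, with adjusted p values of 0.0322, 0.0377 and 0.0488. The fit has 1 residual degree of freedom and borrows its spread from other genes, so its p values rest on the departure from additivity between 4 arrays and not on replicate animals.

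**Figure D2:**
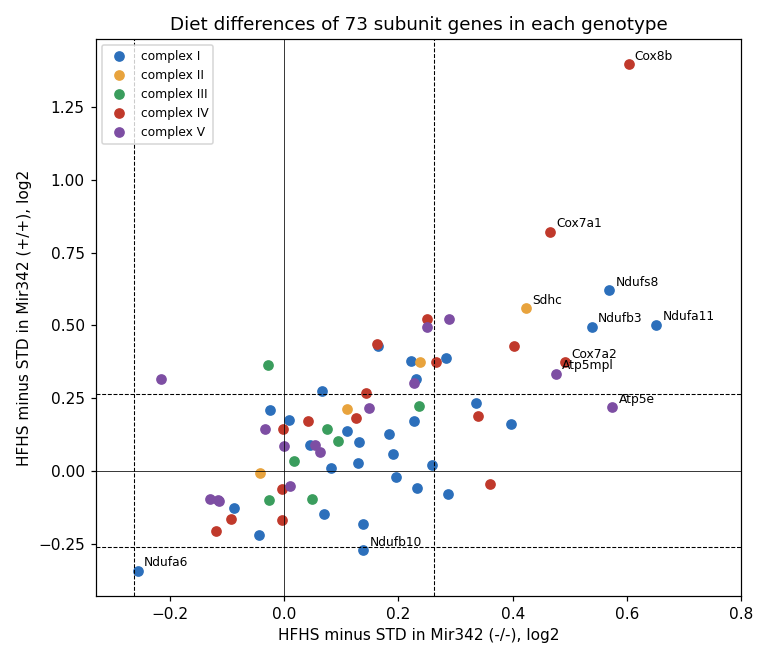
Each point is 1 of 73 subunit genes, with the log2 difference HFHS minus STD in *Mir342* (-/-) on the x axis and in *Mir342* (+/+) on the y axis, coloured by complex. Dashed lines mark 1.2-fold, and the upper right corner holds the 12 genes past it in both genotypes, with *Cox8b* at 0.60 and 1.40.

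Complex I carries NADH electrons through a flavin and a chain of iron-sulfur clusters in its peripheral arm, and its membrane arm pumps protons. Of 30 members above the floor, 7 in *Mir342* (-/-) (23.3%, against 18.5% of all genes) and 8 in *Mir342* (+/+) (26.7%, against 21.6%) were at least 1.2-fold higher on HFHS, with medians of 0.17 and 0.11. *Ndufs8*, a core subunit that binds iron-sulfur clusters, read 7.72 and 7.90 in *Mir342* (-/-) and *Mir342* (+/+) on HFHS, against 7.16 and 7.28 on STD. Both HFHS arrays lay above both STD arrays, by 0.57 in *Mir342* (-/-) and 0.62 in *Mir342* (+/+), and the fitted diet term was 0.59 (SE 0.12, limma adjusted p = 0.0684). The other core subunits differed less. *Ndufv1*, the flavoprotein that binds NADH, read 8.15 and 8.03 on HFHS, against 7.97 and 7.91 on STD. *Ndufs7*, the iron-sulfur subunit next to the quinone site, read 8.93 and 8.84 on HFHS, against 8.80 and 8.74 on STD. *Ndufs1*, *Ndufs3* and *Ndufv2* had diet differences of 0.23, 0.13 and 0.07 in *Mir342* (-/-) and of -0.06, 0.03 and -0.15 in *Mir342* (+/+). *Ndufs8* thus stood alone among the 6 core genes in passing 1.2-fold in either genotype.

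*Ndufa11*, an accessory subunit of the membrane arm whose promoter is shown above, read 7.87 and 7.96 on HFHS, against 7.22 and 7.46 on STD. The difference was 0.65 in *Mir342* (-/-) and 0.50 in *Mir342* (+/+), with a fitted diet term of 0.58 (SE 0.13, limma adjusted p = 0.077). A second, dimmer probe of *Ndufa11* differed by -0.60 in *Mir342* (-/-) and 0.38 in *Mir342* (+/+), so the probes disagreed in direction in *Mir342* (-/-). *Ndufb3*, an accessory subunit of the membrane arm, read 6.87 and 6.75 on HFHS, against 6.33 and 6.26 on STD, with a diet term of 0.52 (SE 0.12, limma adjusted p = 0.0928). *Ndufa13*, also known as GRIM-19 and studied for its part in cell death, read 7.70 and 7.76 on HFHS, against 7.42 and 7.37 on STD. All 3 had no overlap between the diets, which within each genotype follows from their passing 1.2-fold in both. *Ndufa6*, an accessory subunit with an LYR motif, ran the other way and read 7.54 and 7.63 on HFHS, against 7.80 and 7.97 on STD. It was the member with the lowest diet difference in both genotypes, -0.26 in *Mir342* (-/-) and -0.34 in *Mir342* (+/+). *Ndufb10*, a membrane arm subunit, differed by 0.14 in *Mir342* (-/-) and by -0.27 in *Mir342* (+/+), so its direction was not shared.

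Complex II is the citric acid cycle enzyme succinate dehydrogenase, in which *Sdha* and *Sdhb* hold the catalytic part and *Sdhc* and *Sdhd* anchor it in the membrane. The anchors had the larger diet differences. *Sdhc* read 8.56 and 8.69 on HFHS, against 8.13 and 8.13 on STD, with a diet term of 0.49 (SE 0.12, limma adjusted p = 0.106). *Sdhd* read 8.29 and 8.30 on HFHS, against 8.06 and 7.92 on STD. For both anchors the HFHS arrays lay above the STD arrays. *Sdha*, the flavoprotein that oxidizes succinate, read 10.03 and 9.96 on HFHS, against 10.07 and 9.97 on STD, with differences of -0.04 in *Mir342* (-/-) and -0.01 in *Mir342* (+/+). *Sdhb*, the iron-sulfur subunit, differed by 0.11 in *Mir342* (-/-) and 0.21 in *Mir342* (+/+).

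Complex III had 7 members above the floor, of which 0 in *Mir342* (-/-) and 1 in *Mir342* (+/+) were at least 1.2-fold higher on HFHS, with medians of 0.05 and 0.10. The 1 was *Uqcr11*, an accessory subunit, which read 6.46 and 6.53 on HFHS, against 6.49 and 6.17 on STD. Only its STD *Mir342* (+/+) array stood apart. *Uqcrfs1*, the Rieske iron-sulfur protein, differed by 0.09 in *Mir342* (-/-) and 0.10 in *Mir342* (+/+). The core proteins *Uqcrc1* and *Uqcrc2* differed by 0.24 and 0.05 in *Mir342* (-/-) and by 0.22 and -0.10 in *Mir342* (+/+). The hinge protein gene *Uqcrh* ranged over 7.50 to 7.56 on the 4 arrays.

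Complex IV is built around a mitochondrially encoded core and is the complex with the most tissue isoforms, in which a gene used in heart, muscle, brown fat, lung or testis replaces the common one. At least 1.2-fold higher on HFHS were 7 in *Mir342* (-/-) (41.2%, against 18.5% of all genes) and 8 in *Mir342* (+/+) (47.1%, against 21.6%) of its 17 members above the floor, with medians of 0.16 and 0.19. Its 6 tissue isoforms above the floor were taken as *Cox4i2*, *Cox6a2*, *Cox6b2*, *Cox7a1*, *Cox8b* and *Ndufa4l2*. The last was grouped with them as a hypoxia-induced relative of *Ndufa4*, and is not an established subunit. Of the 6, 5 in *Mir342* (-/-) and 4 in *Mir342* (+/+) passed 1.2-fold as read, and 4 did in both. With values under the floor set to it the counts were 4, 4 and 3, without *Cox7a1* in *Mir342* (-/-). Without the tissue isoforms, 13 in *Mir342* (-/-) (19.4%, against 18.5% of all genes) and 20 in *Mir342* (+/+) (29.9%, against 21.6%) of the other 67 members passed it. In both genotypes 8 did (11.9%, against 10.3%). Without these isoforms the share past 1.2-fold was thus close to that of all genes in *Mir342* (-/-) and in both genotypes together. The medians of the 67 were still 0.13 in *Mir342* (-/-) and 0.14 in *Mir342* (+/+), against 0.05 and 0.02 for all genes. By any amount 42 of them were higher on HFHS in both genotypes (62.7%), against 38.2% of all genes.

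*Cox8b*, the heart, muscle and brown fat form of subunit VIII, read 5.96 and 6.09 on HFHS, against 5.36 and 4.69 on STD. The STD *Mir342* (+/+) array was under the floor, so HFHS was at least 2.04-fold higher than STD in *Mir342* (+/+), and 1.52-fold higher in *Mir342* (-/-). The log2 differences were 0.60 in *Mir342* (-/-) and 1.40 in *Mir342* (+/+), of which the fitted diet term is the mean (SE 0.20, limma adjusted p = 0.0657). The 1.40, and with it the fit, rests on the reading under the floor, and against the floor the difference was 1.03. Its partner *Cox8a*, the form of most tissues, read 10.36 and 10.36 on HFHS, against 10.32 and 10.19 on STD, differences of 0.04 in *Mir342* (-/-) and 0.17 in *Mir342* (+/+). *Cox7a1*, the heart, muscle and brown fat form of subunit VIIa, read 5.26 and 5.67 on HFHS, against 4.80 and 4.85 on STD. Both STD arrays were under the floor, so the difference was at least 1.15-fold in *Mir342* (-/-) and at least 1.52-fold in *Mir342* (+/+). Its partner *Cox7a2* read 8.14 and 8.02 on HFHS, against 7.65 and 7.65 on STD, so that here both isoforms read higher on HFHS. The related *Cox7a2l*, which joins complexes III and IV into supercomplexes, differed by -0.09 in *Mir342* (-/-) and -0.17 in *Mir342* (+/+).

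The 100 bases upstream of the start of these 4 isoforms are shown to set tissue forms beside common forms. The diet difference was larger in *Cox8b* than in *Cox8a* in both genotypes, and larger in *Cox7a1* than in *Cox7a2* as read in *Mir342* (+/+) only. *Cox8b* is at chr7:140900447-140900546, *Cox8a* at chr19:7217617-7217716 and *Cox7a2* at chr9:79759854-79759953 on the minus strand, and *Cox7a1* at chr7:30184071-30184170 on the plus strand (GRCm38.p6). No motif searched for lay wholly inside these stretches, so none is in capitals.
Cox8b: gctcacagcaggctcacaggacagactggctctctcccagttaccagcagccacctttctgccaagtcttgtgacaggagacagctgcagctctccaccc
Cox8a: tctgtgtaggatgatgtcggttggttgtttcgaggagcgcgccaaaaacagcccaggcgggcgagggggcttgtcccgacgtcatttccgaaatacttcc
Cox7a1: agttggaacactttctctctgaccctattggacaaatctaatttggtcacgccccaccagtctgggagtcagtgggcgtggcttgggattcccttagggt
Cox7a2: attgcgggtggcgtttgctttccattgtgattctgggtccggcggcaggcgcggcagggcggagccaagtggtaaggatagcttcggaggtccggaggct
Counted over the window of 250 bases before to 50 after the start, the tissue forms *Cox8b* and *Cox7a1* held 2 and 7 CpG dinucleotides, against 19 and 20 in the common forms *Cox8a* and *Cox7a2*. The window of *Cox8a* held 2 matches to the ETS motif described below, 1 of them across the start.

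*Cox4i2*, the form of subunit IV known from lung and induced by hypoxia, read 5.93 and 5.97 on HFHS, against 5.66 and 5.60 on STD. The common form *Cox4i1* read 8.57 and 8.46 on HFHS, against 8.57 and 8.52 on STD, and so stayed level. *Ndufa4l2*, a hypoxia-induced relative of *Ndufa4*, read 6.63 and 6.87 on HFHS, against 6.23 and 6.44 on STD, while *Ndufa4*, named for complex I but a subunit of complex IV, differed by 0.12 in *Mir342* (-/-) and 0.18 in *Mir342* (+/+). Not all tissue forms were higher on HFHS. *Cox6a2*, the heart and muscle form of subunit VIa, differed by -0.00 in *Mir342* (-/-) and -0.17 in *Mir342* (+/+), and its partner *Cox6a1* by 0.14 and 0.27. *Cox6b2*, the testis form of subunit VIb, differed by 0.36 in *Mir342* (-/-) and -0.04 in *Mir342* (+/+), and its partner *Cox6b1* by 0.16 and 0.44. The common subunit *Cox7b* read 6.83 and 6.91 on HFHS, against 6.58 and 6.39 on STD, but its second, dimmer probe differed by 0.48 in *Mir342* (-/-) and -0.40 in *Mir342* (+/+). The testis forms *Cox7b2* and *Cox8c* were under the floor on all 4 arrays, between 2.61 and 3.04 and between 3.70 and 4.24. *Cox5a* and *Cox5b*, the subunit V genes, differed by 0.34 and -0.12 in *Mir342* (-/-) and by 0.19 and -0.21 in *Mir342* (+/+).

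**Figure D3:**
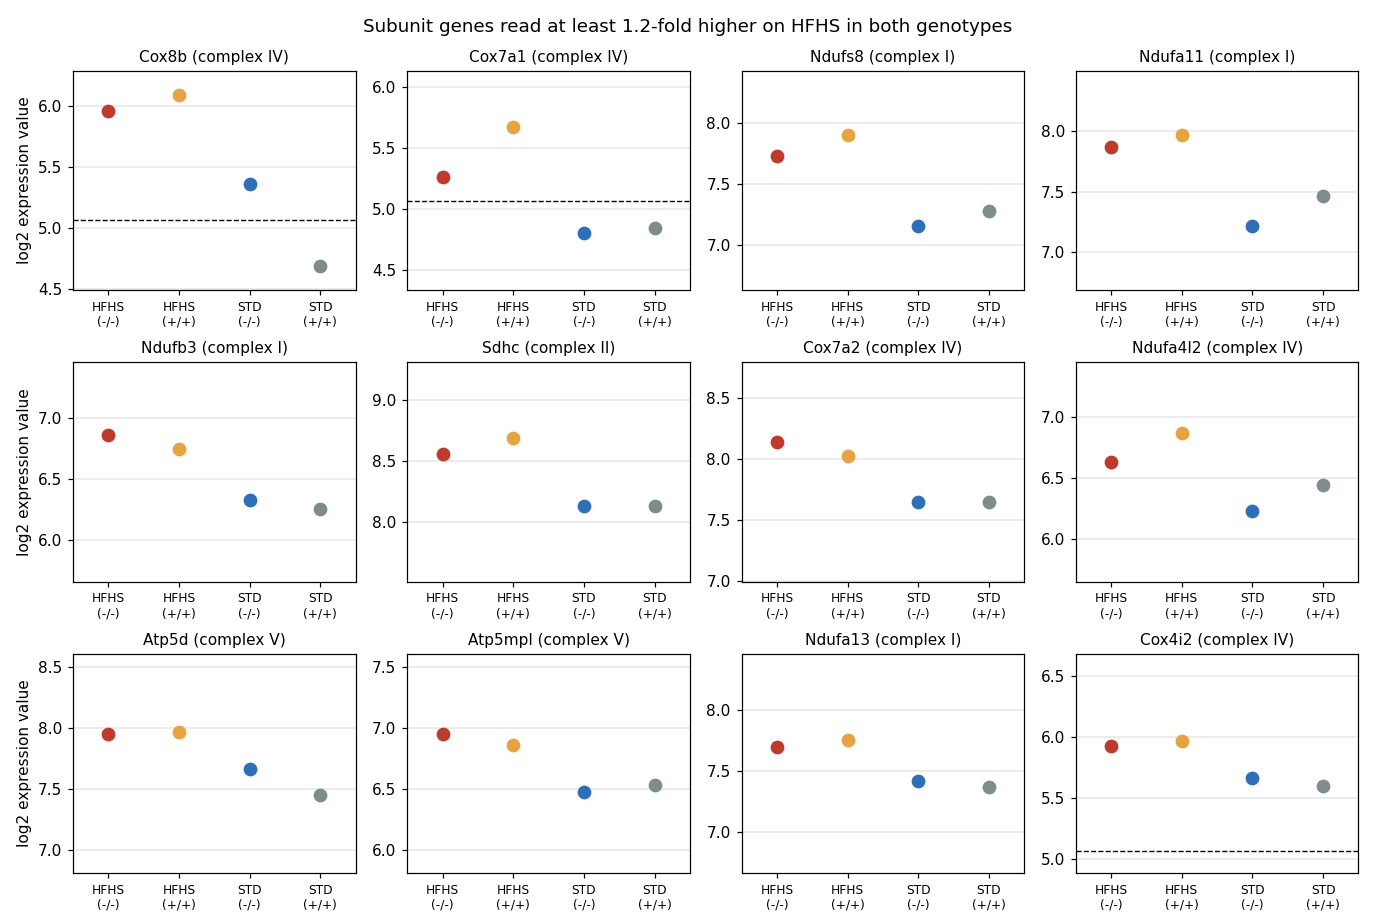
Log2 expression value (y axis, of the same span in each panel) of the 12 subunit genes that read at least 1.2-fold higher on HFHS in both genotypes, with 1 point per array in the order HFHS (-/-), HFHS (+/+), STD (-/-), STD (+/+). The dashed line is the floor of 5.06, under which lie both STD arrays of *Cox7a1* and the STD *Mir342* (+/+) array of *Cox8b*. In every panel both HFHS arrays lie above both STD arrays, an order that within each genotype follows from how the genes were chosen.

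Complex V, ATP synthase, turns a ring of c subunits and a central rotor inside a catalytic head, which a peripheral stalk holds still. At least 1.2-fold higher on HFHS were 3 in *Mir342* (-/-) (20%, against 18.5% of all genes) and 5 in *Mir342* (+/+) (33.3%, against 21.6%) of 15 members, with medians of 0.05 and 0.14. *Atp5d*, the delta subunit of the rotor, read 7.95 and 7.97 on HFHS, against 7.66 and 7.45 on STD. Its second, dimmer probe differed by 0.18 in *Mir342* (-/-) and 0.37 in *Mir342* (+/+), and so passed 1.2-fold in *Mir342* (+/+) only. *Atp5mpl*, a small proteolipid of the membrane part, read 6.95 and 6.86 on HFHS, against 6.47 and 6.53 on STD. *Atp5md*, which encodes DAPIT, read 9.83 and 9.94 on HFHS, against 9.58 and 9.44 on STD. In these 3 genes the HFHS arrays lay above the STD arrays. The head genes stayed within 1.2-fold. *Atp5a1* (alpha) had differences of 0.05 in *Mir342* (-/-) and 0.09 in *Mir342* (+/+). *Atp5b* (beta) had -0.03 and 0.14, the latter close to the median of all members in *Mir342* (+/+), 0.14. The rotor gene *Atp5c1* (gamma) differed by -0.11 in *Mir342* (-/-) and -0.10 in *Mir342* (+/+). *Atp5e* (epsilon) differed by 0.57 and 0.22 on its brighter probe and by 0.07 and -0.15 on its dimmer one, so its value depended on the probe. Of the subunit c genes, *Atp5g2* differed by -0.12 in *Mir342* (-/-) and -0.10 in *Mir342* (+/+), *Atp5g3* by 0.15 and 0.22, and *Atp5g1* had a mean under the floor.

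**Figure D4:**
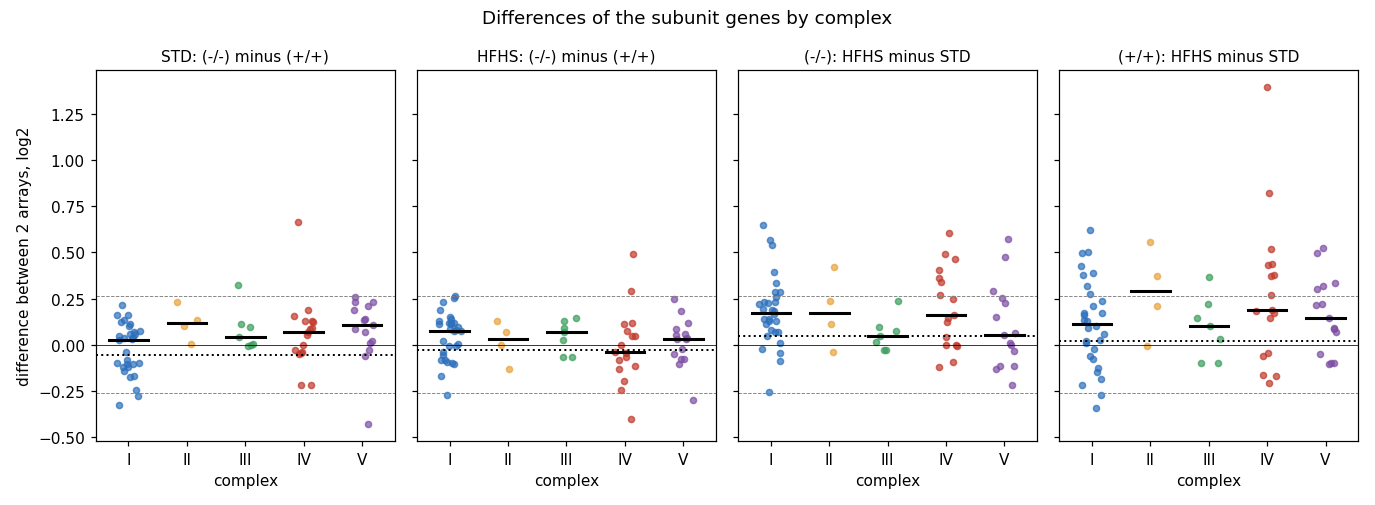
Log2 difference between 2 arrays (y axis) of each subunit gene by complex (x axis), in the 2 genotype comparisons and the 2 diet comparisons. Thick bars are medians per complex, the dotted line is the median of all genes and dashed lines mark 1.2-fold. The bars lie above the dotted line for every complex in both diet panels, by little for complexes III and V in *Mir342* (-/-), and complex IV lies just under it on HFHS.

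Genotype was compared on each diet, to ask what the loss of *Mir342* went with. The subunit genes were close in *Mir342* (-/-) and *Mir342* (+/+), with a median log2 difference of 0.03 on HFHS and 0.05 on STD, against -0.03 and -0.06 for all genes. On HFHS 2 members were at least 1.2-fold higher in *Mir342* (-/-), against 6.06% of all genes, and 3 were lower, against 9.6%. On STD 2 were higher, against 13.2%, and 3 lower, against 21.2%. By any amount, 42 members were higher on HFHS, against 43.3% of all genes, and 49 on STD, against 41.8%. With each array centred on its median, 49.3% of members were higher on HFHS and 50.7% on STD, in place of 57.5% and 67.1%, and with quantile normalization 80.8% were higher on STD. The median on HFHS was under 0 when arrays were centred. The median of members lay above that of all genes by 0.06 on HFHS and 0.11 on STD, and without a floor by 0.03 and 0.04.

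None of the members past 1.2-fold on 1 diet passed it in the same direction on the other. With 2 members higher and 3 lower on each diet, that count is too small to show whether genotype differences repeat. The share of all genes was not counted for it. Signs were shared by 29 members higher on both diets (39.7%) and 11 lower on both (15.1%), against 21.6% and 36.3% of all genes, and 33 had opposite signs. The limma fit called 0 members and 0 of all genes for genotype after adjustment, and at an unadjusted p under 0.05 there were 0 members, where 8.34% of all genes had one. On HFHS the members higher in *Mir342* (-/-) were both tissue forms of complex IV near the floor. *Cox6b2* read 5.59 in *Mir342* (-/-) and 5.10 in *Mir342* (+/+) on HFHS, and 5.23 and 5.14 on STD. *Cox6a2* read 5.35 in *Mir342* (-/-) and 5.06 in *Mir342* (+/+) on HFHS, and 5.35 and 5.23 on STD. Neither kept its size on STD. Lower on HFHS were *Cox7a1* (-0.40), *Atp5o* (-0.30), which encodes the OSCP subunit of the stalk, and *Ndufb8* (-0.27), a membrane arm subunit of complex I. *Cox7a1* read 5.26 in *Mir342* (-/-) and 5.67 in *Mir342* (+/+) on HFHS, and 4.80 and 4.85, both under the floor, on STD. By quantitative PCR on HFHS chow the paper reports *Cox7a1* as unaltered by genotype in epididymal fat, and as lower in *Mir342* (-/-) brown fat. The lower reading here is from 1 array per group and near the floor.

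On STD the members higher in *Mir342* (-/-) were *Cox8b*, at 5.36 against 4.69 in *Mir342* (+/+) or at least 1.23-fold, and *Uqcr11*, at 6.49 against 6.17. Their differences on HFHS were -0.13 and -0.07. Lower in *Mir342* (-/-) on STD were *Atp5e* (-0.43), *Ndufa7* (-0.33) and *Ndufs4* (-0.28), of which *Ndufa7* and *Ndufs4* encode accessory subunits of complex I. The dimmer probe of *Atp5e* differed by -0.02 in this comparison. On HFHS the 3 differed by -0.08, -0.00 and -0.04. Some differences were small but alike on both diets, such as *Atp5c1*, the gamma subunit, at 6.62 in *Mir342* (-/-) and 6.37 in *Mir342* (+/+) on HFHS and at 6.73 and 6.48 on STD, which gave differences of 0.25 and 0.26. The comparisons of genotype and of diet share arrays, so *Cox8b*, lowest in STD *Mir342* (+/+), stands out in both for the same reading.

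That array was the lowest for 39 of 73 members (53.4%), against 28.2% of all genes, and HFHS *Mir342* (-/-) was the lowest for 2, against 17.8%. Mean levels over the members were 7.79 in HFHS *Mir342* (-/-), 7.77 in HFHS *Mir342* (+/+), 7.63 in STD *Mir342* (-/-) and 7.60 in STD *Mir342* (+/+), while all genes were at 6.77, 6.80, 6.71 and 6.77. Cell markers moved with the arrays too. In the order HFHS *Mir342* (-/-), HFHS *Mir342* (+/+), STD *Mir342* (-/-) and STD *Mir342* (+/+), the mean of 8 macrophage markers was 8.51, 8.58, 7.97 and 8.10, that of 6 endothelial markers was 8.97, 9.13, 8.71 and 9.35, and that of 6 mesothelial markers was 7.31, 7.17, 7.40 and 6.67. STD *Mir342* (+/+) was thus lowest for adipocyte and mesothelial markers and highest for endothelial ones, and both HFHS arrays were higher for macrophage markers. Pericyte and smooth muscle markers (9 of 9 above the floor) read 8.11, 8.25, 7.90 and 8.19. The part of these cells in the subunit genes was not tested, and in a bulk tissue a different number of cells cannot be told apart from a different level per cell.

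*Cox8b* and *Cox7a1* are also used by brown fat and muscle, so markers of both were read. Of 7 thermogenic fat markers on the array 2 were above the floor, and *Ucp1*, the uncoupling protein that defines brown fat, was under it on every array, at 4.18 and 4.13 on HFHS and 4.32 and 4.18 on STD. The 2 above it ran in opposite directions, *Cidea* at 5.33 and 5.24 on HFHS, against 5.10 and 4.84 on STD, and *Ppargc1a* lower on HFHS as given further on. Of 13 skeletal muscle markers 7 were above the floor, with list means of 5.45, 5.29, 5.43 and 5.08 in the same order of arrays. The fast myosin genes *Myh1*, *Myh2* and *Myh4* were under the floor on every array. *Acta1*, the actin of skeletal muscle, read 9.08 and 8.94 on HFHS, against 8.78 and 8.01 on STD, and was lowest in the array where *Cox8b* was lowest, as were 4 of the 7 muscle markers above the floor. In 2 of the 7 both HFHS arrays lay above both STD arrays, and *Ckm* read 5.53 and 5.26 on HFHS, against 5.48 and 5.42 on STD. Of the testis and sperm list, relevant to *Cox6b2*, 1 of 5 genes was above the floor.

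Other mitochondrial genes were read beside the subunits. The subunits encoded in mitochondrial DNA that could be read here were 10, of complexes I, III and IV, with none of complex V. They had median diet differences of -0.02 in *Mir342* (-/-) and -0.00 in *Mir342* (+/+), and 0 of them passed 1.2-fold in any comparison. Of all genes, 36.7% stayed within 1.2-fold in all 4 comparisons. Except for *ND6*, these subunits read higher on every array than the highest mean of a member, 11.6. Whether a difference could show at so bright a signal was not tested. *ND6*, at 9.39 to 9.64 over the arrays, had diet differences of 0.05 in *Mir342* (-/-) and -0.25 in *Mir342* (+/+). *COX1*, the catalytic subunit of complex IV, read 12.68 and 12.63 on HFHS, against 12.72 and 12.64 on STD, and so was level between the diets. The 45 assembly factors above the floor, which build the complexes, had medians of 0.19 and 0.10, and 1 was called by the limma fit. It was *Higd2a*, a factor of complex IV and supercomplex assembly, at 9.50 and 9.71 on HFHS, against 8.74 and 8.58 on STD (diet term 0.94, SE 0.14, limma adjusted p = 0.0395). With quantile normalization or without a floor the same fit called 0 genes, *Higd2a* included. *Cycs*, the mobile electron carrier cytochrome c, read 9.56 and 9.49 on HFHS, against 9.02 and 9.14 on STD.

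Of the 17 genes of pyruvate dehydrogenase and the citric acid cycle, 3 in *Mir342* (-/-) (17.6%, against 18.5% of all genes) and 5 in *Mir342* (+/+) (29.4%, against 21.6%) were at least 1.2-fold higher on HFHS, with medians of 0.13 and 0.15. *Idh3a*, which encodes the catalytic subunit of NAD-dependent isocitrate dehydrogenase, had the largest difference of them, at 8.99 and 8.76 on HFHS, against 8.32 and 8.15 on STD. The 18 genes of fatty acid oxidation had medians of 0.12 and 0.11, and the 65 mitochondrial ribosomal proteins 0.12 and -0.01. Cytosolic ribosomal proteins (49 genes) read lower, at -0.06 and -0.16. Of 15 regulators of mitochondrial gene expression none was at least 1.2-fold higher on HFHS in either genotype, while 1 in *Mir342* (-/-) (6.67%, against 9.25% of all genes) and 5 in *Mir342* (+/+) (33.3%, against 18%) were lower. *Ppargc1a*, the coactivator known for mitochondrial biogenesis, read 5.91 and 5.81 on HFHS, against 6.21 and 6.63 on STD, the opposite direction to the subunit genes. *Nrf1*, which encodes NRF1, read 6.01 in *Mir342* (-/-) and 6.40 in *Mir342* (+/+) on HFHS, and 6.09 and 6.50 on STD, and so was lower in both *Mir342* (-/-) arrays.

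**Figure D5:**
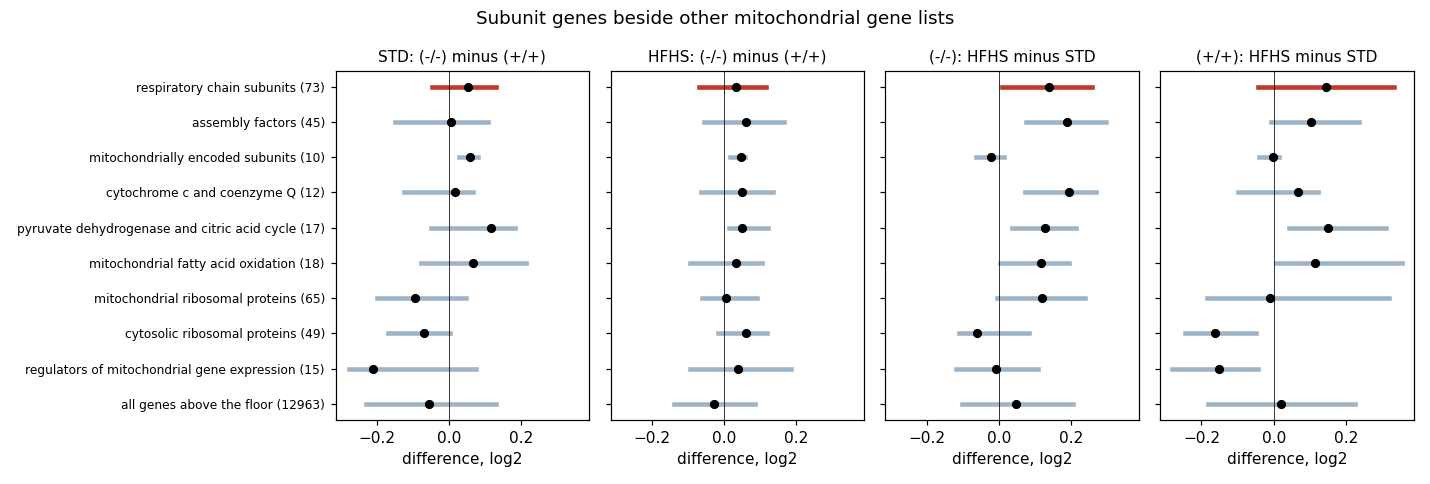
Median (point) and interquartile range (bar) over genes of the log2 difference (x axis) for the respiratory chain subunits and other gene lists, with the number of genes above the floor in brackets, in the 2 genotype comparisons and the 2 diet comparisons. The subunits stand at 0.14 in both diet panels and the mitochondrially encoded subunits at -0.02 and -0.00.

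The subunit genes share promoter features that the choice by symbol did not use. RefSeq windows of 250 bases before to 50 bases after a start were at hand for 65 of the 81 members, as 70 windows, and were read beside 32851 windows of all genes. The median GC content was 57.5% for members and 52.7% for all, and 94.3% of member windows held at least 10 CpG, against 43.5%. Motifs were searched on both strands, and no match of 1 motif overlapped that of another in these windows. NRF1 (CGCANGCGC) was in 31.4% of member windows, against 6.31% of all, and ETS factors (CCGGAAG), the family of the nuclear respiratory factor GABP, in 24.3%, against 8.86%. YY1 (AAGATGGC) was in 12.9%, against 2.75%, and estrogen-related receptors (TCAAGGTCA) in 2.86%, against 0.423%. At least 1 of the 4 was in 39 member genes, for which the share of all genes was not counted. The windows of all genes were not limited to genes above the floor or matched for CpG content. The part of CpG content in the motif shares was not tested.

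Of the 12 genes higher on HFHS in both genotypes, 8 had a window, of which 2 held NRF1, 1 held ETS and 0 held YY1 or the estrogen-related receptor motif. NRF1 was in *Ndufa11*, upstream of the start, and in *Atp5d*, after it, and ETS was in *Ndufs8*, after the start. *Sdha* and *Atp5g2*, which differed little between the diets, held NRF1 upstream as *Ndufa11* did. A match is only a run of letters, and whether a factor bound there was not measured.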

How the data were processed

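Total RNA of epididymal fat was hybridised to GeneChip Mouse Gene 2.0 ST arrays, 1 per group. The values the authors deposited are log2 expression values per probe set. The sources used here do not give their summarization or normalization, and no step was added to them. Groups were taken from the genotype and diet of the labels.

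Of 41345 probes, 23521 carry 1 gene symbol and gave 22180 genes, each read by its probe of highest mean over the 4 arrays. A further 10 probes that name several genes match the rule and were not used. A total of 9 members had more than 1 probe. All 81 members matched RefSeq by gene identifier. The floor and the fold of 1.2 are described with the results; a fold against an array under the floor was computed against the floor and is given as a lower limit. Differences are HFHS minus STD and *Mir342* (-/-) minus *Mir342* (+/+). The additive fit used limma 3.58.1 in R 4.3.3, with 5.45 prior degrees of freedom, a threshold of 0.05 and Benjamini-Hochberg adjustment over 12963 genes, and was tested on simulated data.

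Genes named are core subunits, isoform pairs, members with extreme differences in a comparison, and up to 3 genes of each other list; the members past 1.2-fold on HFHS in both genotypes, *Uqcrh*, *Atp5md*, *Ndufa4*, *COX1*, and single markers were added after their values were seen. The members, lists and thresholds were chosen with earlier results of these data known. Alternatives were centring of arrays, quantile normalization, the floor left out or raised by 1, averaged probes, established subunits alone, a 1.5-fold threshold, and limma with trend and robust variances. Arrays have no read depth, and 1 array per group limits the precision.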

Additional observations from a re-analysis of the deposited data

How the results depend on the processing

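The member medians kept their sign under quantile normalization, centring, either floor, averaged probes and established subunits alone, except the genotype median on HFHS, which was -0.00132 with arrays centred, in place of 0.03. Counts past 1.2-fold are small for genotype and moved with most settings. On HFHS the count higher in *Mir342* (-/-), 2, was 4 with quantile normalization, 1 with centring, 0 with the floor raised by 1 and 0 at 1.5-fold, and the count lower, 3, was 1 with the floor raised and 0 at 1.5-fold. On STD the count higher, 2, was 8 with quantile normalization, 5 without a floor, 1 with the floor raised and 1 at 1.5-fold, and the count lower, 3, was 1 with quantile normalization, 6 with centring and 0 at 1.5-fold. For diet in *Mir342* (-/-) the count higher, 18, was 28 with centring and 2 at 1.5-fold, and the count lower, 0, was 1 with quantile normalization, 4 without a floor and 1 with averaged probes. In *Mir342* (+/+) the count higher, 24, was 3 at 1.5-fold, and the count lower, 2, was 1 with quantile normalization, 1 with centring, 5 without a floor, 4 with averaged probes and 0 at 1.5-fold. The 1.5-fold counts are smaller by construction, and for the other settings the cause was not tested. The limma count of members higher on HFHS, 0, was 3 with the floor raised by 1, where 66 members and 8508 genes were tested. Over all genes the fit called 237 for diet, against 0 with quantile normalization, 331 with centring, 0 without a floor and 564 with the floor raised. The member median lay above that of all genes by 0.09 and 0.12 for diet in *Mir342* (-/-) and *Mir342* (+/+) as reported, and by 0.06 and 0.12 with quantile normalization.

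With 1 array per group, leaving out a replicate was not possible. No paired analysis was possible because the labels carry no replicate numbers and each group has 1 array. Animals and conditions cannot be told apart in any comparison. *Cox8b*, *Cox7a1*, *Cox6a2* and *Cox6b2* lie near the floor, and *Ndufa11*, *Cox7b*, *Atp5e* and *Atp5h* have probes above the floor that disagree, *Atp5h* by 0.05 and -0.36 for genotype on HFHS. Setting values under the floor to it, an alternative added after seeing the data, gave 17 members higher for diet in *Mir342* (-/-) and the same genotype and *Mir342* (+/+) counts.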
